A study of Mus musculus with 16 samples.

Results

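The 10 genes described here encode the AP-1 transcription factor subunits and their closest dimer partners in T cells: Jun, Junb, Jund, Fos, Fosb, Fosl1, Fosl2, Batf, Batf3 and Atf3. They were chosen by gene symbol, and each was measured by 1 feature, among 30921 genes on 16 mouse gene expression arrays. The labels describe splenic CD4 T cells of male, 8-week-old C54BL/6 WT mice (the strain as spelled there), cultured for 3 days. Each of 4 groups had 4 arrays. Eze cells were kept under Th17 conditions with 20 µM ezetimibe, a drug that lowers cholesterol uptake in the gut. Rsv cells were kept under Th17 conditions with 20 µM rosuvastatin, a statin that inhibits the rate-limiting enzyme of cholesterol synthesis. Th17 cells had the Th17 conditions alone, and Th0 cells had a Th0 condition that the labels describe no further. The study's text calls the Th0 group naive T cells and gives no culture conditions for it. No group with the drug vehicle alone is named. By the study's methods, Th17 conditions were antibodies to CD3 and CD28 for stimulation, antibodies that block interferon-γ and IL-4, and the cytokines TGF-β and IL-6. The study's text describes the drug-treated cells as splenocytes and gives lengths of drug exposure that differ between its parts, and it gives BALB/c as the strain for its in vitro work, against the strain in the labels. Which cells and strain the RNA came from and how long the cells saw the drug are not settled by the sources used here. Whether the Th0 cells had been stimulated is not settled either.

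AP-1 factors are dimers of basic leucine zipper proteins. Jun proteins pair with each other or with Fos proteins, whereas Fos proteins need a Jun partner, and the dimers bind a short DNA element found near many genes of T cell activation. In T cells the family is switched on by MAP kinases below the T cell receptor and CD28, and it binds together with NFAT proteins at cytokine genes such as Il2. Batf proteins pair with Jun proteins and bind together with Irf4 or Irf8. In mouse T cells, Batf and Junb are needed for Th17 differentiation, and Fosl2 is known to restrain other helper programmes in Th17 cells. Atf3 is a stress-induced member that can repress or activate its targets.

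Promoter sequence was matched in RefSeq (GRCm38.p6) for 9 of the 10 genes. The 250 bases before the start site are printed for the 4 genes whose group means spread the most over the 4 groups, since these carry the results below. Capitals mark matches, on either strand, to an AP-1 element (TGANTCA), to a CRE-like element that Jun and ATF proteins bind (TGACNTCA) or to a composite CEBP and ATF element (TGATGNAA). A CArG box, the site of serum response factor, was searched as well. The motifs were chosen with the sequences in view.

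Jun, chr4:95052223-95052472, minus strand, with 1 match to TGACNTCA:
Jun: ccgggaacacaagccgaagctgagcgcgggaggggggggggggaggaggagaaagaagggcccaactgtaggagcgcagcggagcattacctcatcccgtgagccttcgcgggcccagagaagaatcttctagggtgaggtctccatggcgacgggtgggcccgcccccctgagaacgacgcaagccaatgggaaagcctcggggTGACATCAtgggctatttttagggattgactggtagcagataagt

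Atf3, chr1:191183334-191183583, minus strand, with 1 match to TGATGNAA that lies on the opposite strand:
Atf3: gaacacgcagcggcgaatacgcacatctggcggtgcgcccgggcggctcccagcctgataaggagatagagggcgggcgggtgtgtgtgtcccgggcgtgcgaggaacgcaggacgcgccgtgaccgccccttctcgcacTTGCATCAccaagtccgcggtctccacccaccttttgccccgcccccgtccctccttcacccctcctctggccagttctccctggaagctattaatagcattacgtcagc

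Fosl2, chr5:32136222-32136471, plus strand, with no match:
Fosl2: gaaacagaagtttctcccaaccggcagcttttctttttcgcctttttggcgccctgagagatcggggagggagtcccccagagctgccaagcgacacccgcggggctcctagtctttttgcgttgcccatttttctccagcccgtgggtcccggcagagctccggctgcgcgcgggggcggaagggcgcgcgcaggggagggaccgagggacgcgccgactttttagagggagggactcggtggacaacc

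Batf3, chr1:191098164-191098413, plus strand, with no match:
Batf3: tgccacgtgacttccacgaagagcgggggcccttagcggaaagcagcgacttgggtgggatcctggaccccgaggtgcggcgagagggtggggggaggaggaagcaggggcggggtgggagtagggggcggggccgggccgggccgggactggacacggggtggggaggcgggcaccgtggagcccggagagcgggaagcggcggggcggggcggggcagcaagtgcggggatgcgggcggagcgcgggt

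The match in Jun, TGACATCA, lay at -45 to -38, counted from the start site. The match in Atf3, read as TTGCATCA on the strand of the gene, lay at -110 to -103. The other 7 promoters, including those of Fosl2 and Batf3, held none of the 4 motifs in this window. Of 32851 promoters of the same length, 6.75% held TGANTCA, 7.49% TGACNTCA, 3.45% TGATGNAA and 1.47% a CArG box, and no motif overlapped another in these genes. A match is a description of the letters alone, and the arrays did not measure binding.

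Signals were log2 values that had been normalized between arrays. The area under the curve for exon against intron control features, a measure of how well RNA stands out from background, was 0.890 to 0.894 in Eze, 0.877 to 0.881 in Rsv, 0.876 to 0.881 in Th17 and 0.870 to 0.876 in Th0. In every group the array whose title has no number also has another leading code in its name than the 3 numbered arrays. What the code stands for is not given, and some differences are also reported within each set of arrays. Others that diverged are not listed below, such as Fosl1 in Rsv against Th0 (-0.96 between the numbered arrays and -0.63 between the unnumbered ones). Of 11 T cell markers, 10 lay above the 95th percentile of the intron controls on all arrays of all groups, with a mean over the list of 9.26 to 9.35 in Eze, 9.36 to 9.50 in Rsv, 9.61 to 9.65 in Th17 and 9.33 to 9.39 in Th0. Markers of other cells were present too and differed between groups. The mean of 10 B cell markers was 5.55 to 5.61 in Eze, 5.10 to 5.29 in Rsv, 4.80 to 4.93 in Th17 and 6.55 to 6.69 in Th0, with Cd74 above that percentile on all 16 arrays. The mean of 6 NK and cytotoxic markers was 4.20 to 4.37 in Eze, 5.31 to 5.54 in Rsv, 4.98 to 5.05 in Th17 and 4.71 to 4.97 in Th0. Of these 6, Gzma passed that percentile on 12 of 16 arrays, Prf1 on 5 and the others on 0. The mean of the CD8 T cell markers Cd8a and Cd8b1 was 6.19 to 6.41 in Eze, 7.34 to 7.73 in Rsv, 6.57 to 6.63 in Th17 and 5.83 to 6.15 in Th0, and on all Rsv arrays both passed that percentile. Of 11 myeloid markers, 8 were higher in Rsv than in Th17 and 1 lower, where 26.0% of all genes passed in either direction. Of the 11, only Cd68 passed that percentile on any array. It was the 1 lower marker, at a mean of 6.54 in Rsv and 8.05 in Th17. The 5 erythroid markers gave no difference past the threshold in any comparison.

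Intron control features, which carry little mature RNA, served as a scale of background for the 10 genes. Jun, Junb, Jund and Fosl2 lay above the 95th percentile of these 5331 controls on all 16 arrays. Batf and Atf3 did so on 14 arrays each, Batf with 2 of 4 Rsv arrays below it and Atf3 on 3 of 4 Th17 and 3 of 4 Rsv arrays. Batf3 passed it on 8 arrays, on 4 Eze, 2 Rsv, 0 Th17 and 2 Th0 arrays, and Fosl1 on 1 array, of the Eze group. The percentile itself lay at 6.50 to 6.62 in Eze, 6.68 to 6.71 in Rsv, 6.72 to 6.79 in Th17 and 6.77 to 6.82 in Th0. Passing it thus took less signal in Eze than in the other groups. Fos and Fosb, the immediate early members that are known to peak and fade soon after stimulation, lay between the percentiles 57.8 and 70.1 and between 40.3 and 63.1. On no array did either pass the 75th percentile, and no difference is therefore reported for Fos or Fosb, although both remain in every count over the 10 genes.

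**Figure D1:**
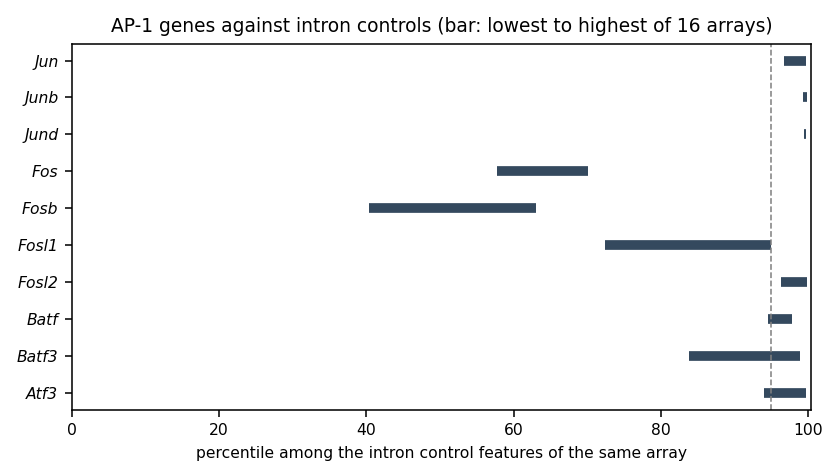
Position of each AP-1 gene among the intron control features of the same array, in percent, with bars from the lowest to the highest of 16 arrays and a dashed line at the 95th percentile. Jun, Junb, Jund and Fosl2 stayed above the line on all arrays, while Fos (57.8 to 70.1) and Fosb (40.3 to 63.1) lay in the middle of the controls.

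The widest ranges of group means were those of Fosl2 (2.29 on the log2 scale), Atf3 (1.89), Jun (1.34) and Batf3 (1.30). Fosl1 spanned 0.92, Batf 0.55, Junb 0.54 and Jund 0.25. With the threshold at an adjusted p of 0.05 (limma, Benjamini-Hochberg over all genes), members passed in both directions in every comparison. Between Eze and Th17, 3 members were higher and 2 lower (5 of 10, where 21.7% of all genes passed in either direction). Between Rsv and Th17, 2 were higher and 2 lower (4 of 10, against 26.0% of all genes). Between Eze and Rsv, 5 were higher and 2 lower (7 of 10, against 28.5%). Between Th17 and Th0, 2 were higher and 4 lower (6 of 10, against 15.8%). Against Th0, Eze had 1 member higher and 3 lower (4 of 10, against 22.5%), and Rsv had 1 higher and 5 lower (6 of 10, against 26.2%). The Eze, Rsv and Th17 groups each serve in several of these comparisons, so the comparisons are not independent of each other. All 10 members lay above the median of all genes in mean signal. Among the genes above that median, fitted alone, 7067 passed in Eze against Th17 and 7440 in Rsv against Th17. In Eze against Rsv 7339 of them passed, and in Th17 against Th0 5299. Passing was thus more common among genes as bright as the members than the shares over all genes show. No excess of members past the threshold is therefore read from the shares over all genes. The shares without overlap given next also cover all genes.

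The arrays of the compared groups did not overlap for 5 members in Eze against Th17 (25.5% of all genes), 4 in Rsv against Th17 (25.5%), 7 in Eze against Rsv (28.6%) and 6 in Th17 against Th0 (19.6%). Against Th0, they did not overlap for 5 members in Eze (27.2%) and 6 in Rsv (25.5%). With 4 arrays against 4, an exact Mann-Whitney test cannot go below a two-sided p of 0.0286, and it reached that value for each of these members. The median difference over the 10 members lay at -0.06 in Eze against Th17 (all genes -0.04), -0.04 in Rsv against Th17 (all genes 0.06), 0.30 in Eze against Rsv (all genes -0.08) and -0.10 in Th17 against Th0 (all genes -0.03). Against Th0 it lay at -0.17 in Eze (all genes -0.07) and at -0.33 in Rsv (all genes 0.03). Centring each array on its own median moved the median difference over all genes to 0.08 in Eze against Rsv and to 0.03 in Eze against Th0, shifts of more than 0.1. The count of members past the threshold in Eze against Rsv then stayed at 7, with 6 higher and 1 lower in place of 5 and 2.

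**Figure D2:**
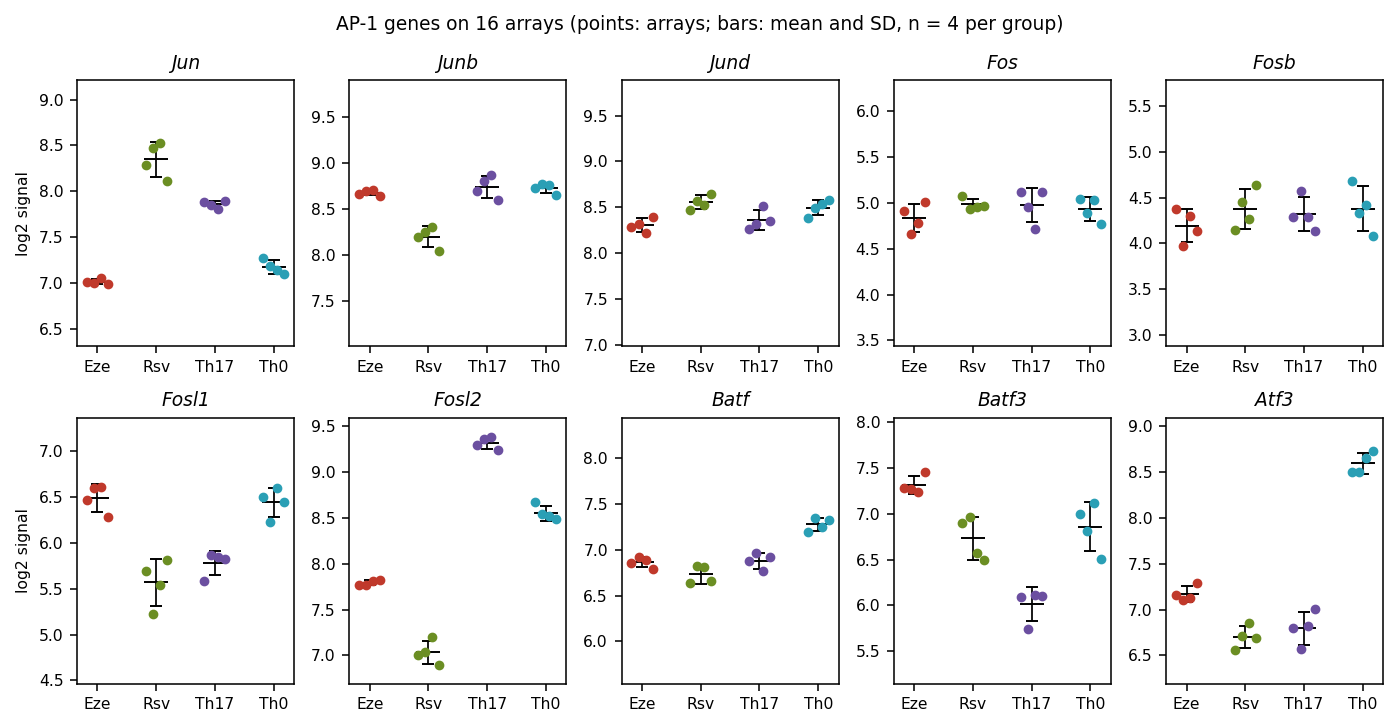
Log2 signal of the 10 AP-1 genes on each array (points) with the mean and SD of each group (bars, n = 4) for Eze, Rsv, Th17 and Th0, each panel on its own axis of equal length. Fosl2 was at 7.76 to 7.82 in Eze and 6.90 to 7.20 in Rsv, against 9.24 to 9.39 in Th17, Jun was highest in Rsv and lowest in Eze, and Atf3 stood apart in Th0 at 8.50 to 8.73.

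Jun, the subunit that gave the family its name and a strong activator when paired with Fos proteins, moved in opposite directions with the 2 drugs. It was at 7.01, 7.00, 7.05 and 6.99 on the Eze arrays, at 8.29, 8.47, 8.53 and 8.11 on the Rsv arrays, at 7.88, 7.85, 7.81 and 7.90 on the Th17 arrays and at 7.27, 7.18, 7.14 and 7.10 on the Th0 arrays. No 2 groups overlapped: Rsv was highest, then Th17, then Th0, then Eze. Jun was lower in Eze than in Th17 by a log2 difference of -0.85 (SE 0.09, 1.80-fold, adjusted p = 6.63e-07, limma). It was higher in Rsv than in Th17, at 0.49 (SE 0.09, 1.41-fold, adjusted p = 0.000274). The direct comparison of Eze with Rsv gave -1.34 (SE 0.09, 2.52-fold, adjusted p = 2.56e-09), and 1.17% of all genes had a larger difference there. Rsv also exceeded Th0, by 1.18 (2.26-fold, adjusted p = 6.7e-09). Th17 cells had more Jun signal than Th0 cells, by 0.69 (SE 0.09, 1.61-fold, adjusted p = 1.06e-05). The Eze and Th0 groups, next to each other in the order, did not pass the test, with a difference of -0.16 (95% interval -0.34 to 0.02, adjusted p = 0.213). The size of the Rsv difference from Th17 was uneven, at 0.58 between the numbered arrays and 0.21 between the unnumbered single arrays. Jun is also among the genes that the study displayed from these arrays, so its values here are not independent evidence of that choice. The mean of the NK and cytotoxic markers had the same order of groups, but the single markers had other orders. Gzma, for one, averaged 5.42 in Eze, 7.86 in Rsv, 8.08 in Th17 and 7.19 in Th0. Only Gzma and Prf1 passed the 95th percentile of the intron controls on any array. Of the 6 markers, 4 were higher in Rsv than in Th17, where 26.0% of all genes passed in either direction. In Eze against Th17, 3 of the 6 were lower, where 21.7% of all genes passed. The part of these markers in the Jun values was not tested. In RNA from whole cultures, fewer cells of a type cannot be told apart from less RNA per cell.

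Junb, which in mouse Th17 cells pairs with Batf at Th17 genes, was lower in Rsv than in each of the other groups, and no other pair of groups passed the test. It was at 8.67, 8.69, 8.71 and 8.64 in Eze, at 8.20, 8.25, 8.30 and 8.04 in Rsv, at 8.70, 8.80, 8.87 and 8.60 in Th17 and at 8.73, 8.77, 8.76 and 8.65 in Th0. All 4 Rsv arrays lay below the other 12, and the other groups overlapped. Junb was lower in Rsv than in Th17, at -0.54 (SE 0.08, 1.46-fold, adjusted p = 4.14e-05, limma). Eze exceeded Rsv by 0.48 (1.40-fold, adjusted p = 0.000188), and Rsv stood at -0.53 against Th0 (1.44-fold, adjusted p = 4.8e-05). For Eze against Th17 the difference was -0.06 with a 95% interval of -0.23 to 0.11, and for Th17 against Th0 it was 0.01 with an interval of -0.15 to 0.18.

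Jund, a broadly expressed Jun protein known as a weaker activator, had the narrowest range of the 8 members whose differences are reported. It was at 8.28, 8.32, 8.22 and 8.40 in Eze, at 8.47, 8.57, 8.52 and 8.65 in Rsv, at 8.27, 8.32, 8.51 and 8.35 in Th17 and at 8.38, 8.49, 8.53 and 8.58 in Th0. Eze and Rsv arrays did not overlap, while Th17 and Th0 overlapped with both. Eze was lower than Rsv, at -0.25 (SE 0.08, 1.19-fold, adjusted p = 0.0254, limma). That call was lost when each array was centred on its median (-0.09, adjusted p = 0.464). Against Th17, the differences were -0.06 in Eze (95% interval -0.22 to 0.11) and 0.19 in Rsv (0.03 to 0.36, adjusted p = 0.0854).

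Fosl2, which encodes the Fos protein Fra-2, showed the largest differences of the family between either drug group and Th17. It was at 7.77, 7.76, 7.81 and 7.82 in Eze, at 7.00, 7.03, 7.20 and 6.90 in Rsv, at 9.29, 9.36, 9.39 and 9.24 in Th17 and at 8.67, 8.54, 8.52 and 8.48 in Th0. No 2 groups overlapped, and both drug groups lay below Th0 as well as below Th17. In Eze, Fosl2 was lower than in Th17 by a log2 difference of -1.53 (SE 0.08, 2.88-fold, adjusted p = 1.61e-10, limma), a size that 0.33% of all genes exceeded. In Rsv it was lower than in Th17, at -2.29 (SE 0.08, 4.87-fold, adjusted p = 4.82e-13), a size that 0.165% of all genes exceeded. Eze remained above Rsv by 0.76 (SE 0.08, 1.69-fold, adjusted p = 9.28e-07). Th17 cells exceeded Th0 cells by 0.77 (SE 0.08, 1.70-fold, adjusted p = 8.38e-07). Relative to Th0, Fosl2 stood at -0.76 in Eze (adjusted p = 9.56e-07) and at -1.52 in Rsv (adjusted p = 5.93e-11). Within the unnumbered single arrays and within the numbered arrays the Eze difference from Th17 was -1.42 and -1.56, and the Rsv difference was -2.35 and -2.27. Against Th17, T cell markers were more often lower than higher, like Fosl2, with 7 of 11 lower and 1 higher in Eze (median -0.40). In Rsv, 5 of 11 were lower and 0 higher (median -0.18). In Th17 against Th0, where Fosl2 was higher in Th17, 6 were higher and 0 lower. In Eze against Rsv, where Fosl2 was higher in Eze, 2 were higher and 4 lower. The shares of all genes past the threshold were 21.7%, 26.0%, 15.8% and 28.5% in these comparisons. The part of the T cell markers in the Fosl2 values was not tested.

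Fosl1, which encodes the Fos protein Fra-1, was high in Eze and Th0 and low in Rsv and Th17. It was at 6.46, 6.60, 6.61 and 6.29 in Eze, at 5.69, 5.22, 5.54 and 5.81 in Rsv, at 5.58, 5.86, 5.85 and 5.83 in Th17 and at 6.50, 6.22, 6.60 and 6.44 in Th0. The Eze and Th0 arrays lay together above the Rsv and Th17 arrays, with no overlap between the pairs of groups. The signal was low, since 1 of 16 arrays passed the 95th percentile of the intron controls, and differences are therefore given as measured on the log2 scale, with no fold. Fosl1 was higher in Eze than in Th17 by 0.71 (SE 0.12, adjusted p = 0.000229, limma), by 0.79 between the numbered arrays and 0.46 between the unnumbered ones. Th17 was lower than Th0, at -0.66 (SE 0.12, adjusted p = 0.000653), and Rsv was lower than Th0, at -0.87 (adjusted p = 2.12e-05). Eze exceeded Rsv by 0.92 (SE 0.12, adjusted p = 1.81e-05), by 1.07 between the numbered arrays and 0.47 between the unnumbered ones. Rsv differed from Th17 by -0.21 (95% interval -0.47 to 0.05) and Eze from Th0 by 0.05 (-0.21 to 0.30), neither past the threshold.

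Fos was at 4.66 to 5.01 in Eze, 4.94 to 5.08 in Rsv, 4.72 to 5.12 in Th17 and 4.77 to 5.04 in Th0. Fosb was at 3.98 to 4.37 in Eze, 4.14 to 4.64 in Rsv, 4.13 to 4.57 in Th17 and 4.08 to 4.68 in Th0. All 4 groups overlapped for both genes, at signals inside the range of the intron controls.

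**Figure D3:**
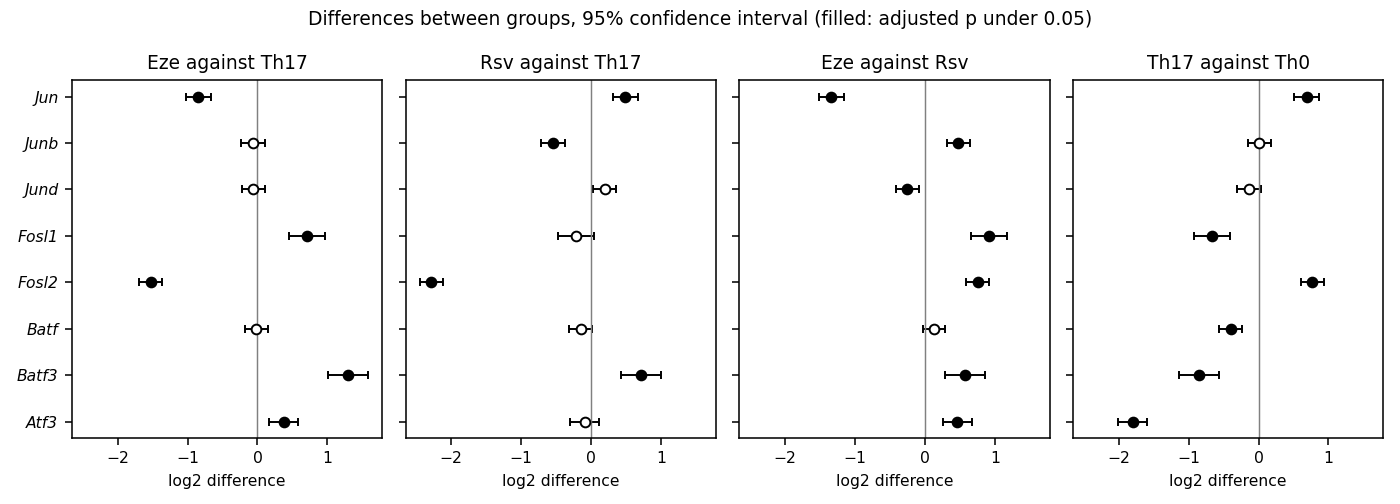
Log2 differences between group means with 95% confidence intervals for the 8 AP-1 genes other than Fos and Fosb, in 4 comparisons with the first-named group minus the second; filled points passed an adjusted p of 0.05. Fosl2 was lower with either drug than in Th17 (-1.53 in Eze, -2.29 in Rsv), while Jun was lower in Eze (-0.85) and higher in Rsv (0.49).

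Batf, which lacks an activation domain of its own and works through Jun partners and Irf factors, separated Th0 from the 3 groups under Th17 conditions. It was at 6.85, 6.92, 6.89 and 6.79 in Eze, at 6.63, 6.82, 6.81 and 6.66 in Rsv, at 6.88, 6.96, 6.76 and 6.92 in Th17 and at 7.19, 7.35, 7.25 and 7.32 in Th0. All 4 Th0 arrays lay above the other 12. Batf was lower in Th17 than in Th0, at -0.40 (SE 0.08, 1.32-fold, adjusted p = 0.00102, limma). It was also lower than in Th0 in Eze, at -0.41 (1.33-fold, adjusted p = 0.000568), and in Rsv, at -0.55 (1.46-fold, adjusted p = 2.24e-05). Batf passed the 95th percentile of the intron controls on 2 of 4 Rsv arrays, so the fold with Rsv involves signals near that background. Neither drug gave a difference from Th17 past the threshold, with -0.02 in Eze (95% interval -0.18 to 0.14) and -0.15 in Rsv (-0.31 to 0.01).

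Batf3, known for its role in cross-presenting dendritic cells and expressed in activated T cells too, followed another order, with Th17 lowest. It was at 7.28, 7.27, 7.24 and 7.45 in Eze, at 6.90, 6.96, 6.57 and 6.49 in Rsv, at 6.10, 5.74, 6.12 and 6.10 in Th17 and at 7.00, 6.81, 7.12 and 6.50 in Th0. The Th17 arrays lay below those of all other groups and the Eze arrays above them, while Rsv and Th0 overlapped. None of the 4 Th17 arrays passed the 95th percentile of the intron controls, so the size of a difference from Th17 is given as measured, with no fold. Batf3 was higher than in Th17 by a log2 difference of 1.30 in Eze (SE 0.14, adjusted p = 8.46e-07, limma) and of 0.72 in Rsv (SE 0.14, adjusted p = 0.000525). Th17 was lower than Th0, at -0.85 (SE 0.14, adjusted p = 0.000155). This difference was -0.99 between the numbered arrays and -0.40 between the unnumbered ones. The Rsv difference from Th17 was likewise uneven, at 0.83 and 0.39. Eze exceeded Rsv by 0.58 (adjusted p = 0.00365), at 0.45 between the numbered arrays and 0.96 between the unnumbered ones. The difference between Eze and Th0 of 0.45 (adjusted p = 0.0212) did not hold between the numbered arrays alone, at 0.29 (adjusted p = 0.148), and it was 0.95 between the unnumbered ones.

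Atf3 was higher in Th0 than in the 3 groups under Th17 conditions. It was at 7.16, 7.11, 7.12 and 7.29 in Eze, at 6.56, 6.71, 6.85 and 6.69 in Rsv, at 6.80, 6.57, 6.82 and 7.01 in Th17 and at 8.51, 8.50, 8.66 and 8.73 in Th0. The Th0 arrays lay far above all others, the Eze arrays came next without overlap, and Rsv and Th17 overlapped. Atf3 was lower in Th17 than in Th0 by a log2 difference of -1.80 (SE 0.10, 3.48-fold, adjusted p = 2.43e-10, limma), and 0.307% of all genes had a larger difference. Against Th0 it also fell by 1.43 in Eze (2.69-fold, adjusted p = 6.67e-09) and by 1.89 in Rsv (3.71-fold, adjusted p = 5.97e-11). Eze was above Th17 by 0.37 (SE 0.10, 1.30-fold, adjusted p = 0.00832) and above Rsv by 0.47 (SE 0.10, 1.38-fold, adjusted p = 0.00152). Rsv and Th17 differed by -0.09 with a 95% interval of -0.30 to 0.11. Atf3 passed the 95th percentile of the intron controls on 3 of 4 Th17 and 3 of 4 Rsv arrays. The folds with these groups thus involve signals near that background.

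B cell markers differed in the same direction as several of these genes, though not in every comparison. Of all genes, 21.7% passed in Eze against Th17, 26.0% in Rsv against Th17 and 28.5% in Eze against Rsv, in either direction. In Th17, Eze and Rsv against Th0, 15.8%, 22.5% and 26.2% passed. In Eze against Th17, 9 of the 10 B cell markers rose (median 0.77), as did Fosl1, Batf3 and Atf3. In Rsv against Th17, 4 rose (median 0.25), as did Batf3, while Fosl1 and Atf3 did not pass the test. In Eze against Rsv, 6 rose (median 0.47), as did Fosl1, Batf3 and Atf3. In Th17 against Th0, 9 fell (median -1.75), as did Fosl1, Batf, Batf3 and Atf3. Against Th0, 9 fell in Eze and 9 in Rsv, as did Batf and Atf3 in both and Fosl1 in Rsv, whereas Batf3 was higher in Eze and did not pass in Rsv. On all 4 arrays of a group, 1 of them, Cd74, passed the 95th percentile of the intron controls in Eze, Rsv and Th17, and 4 did in Th0. Their part in the values of Fosl1, Batf, Batf3 and Atf3 was not tested. Batf3 and Atf3 are neighbours on chromosome 1, with 61353 bases between them (191098414 to 191108943 on the plus strand and 191170296 to 191183340 on the minus strand). Both rose in Eze against Th17 and fell in Th17 against Th0, but against Th0 the Eze group was higher for Batf3 and lower for Atf3. Fos and Batf lie 209396 bases apart on chromosome 12. Jun lies on chromosome 4 (95049034 to 95052222, minus strand) and Fosl2 on chromosome 5 (32136472 to 32157840, plus strand). These are the positions of the deposited annotation, and for all 10 genes the start or the end is that of the same gene in GRCm38.

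The other genes that build or drive AP-1 were counted by list, beside the shares of all genes past the threshold. These shares were 21.7% in Eze against Th17, 26.0% in Rsv against Th17 and 15.8% in Th17 against Th0. Of 28 bZIP relatives and dimer partners, 6 rose and 10 fell in Eze against Th17, and 1 rose and 12 fell in Rsv against Th17. The higher ones in Eze were led by Nfe2l1, an activator of proteasome genes, at 0.95 (SE 0.08, adjusted p = 3.02e-08, limma), and by Atf4, which drives the response to amino acid shortage, at 0.82 (SE 0.09, adjusted p = 2.72e-06). Among the lower ones, Crem, which responds to cyclic AMP, stood at -1.03 in Eze and at -1.47 in Rsv. The repressor Nfil3 stood at -0.88 in Eze and at -1.68 in Rsv. The means of Crem lay below the 95th percentile of the intron controls in all groups. So did those of Nfe2l1 in Rsv, Th17 and Th0 and of Nfil3 in Rsv. In Rsv, Nfe2l1 was at 0.31 (adjusted p = 0.00494, lost at 0.0845 with each array centred) and Atf4 at 0.07, not past the threshold. With each array centred on its median, 7 relatives rose and 7 fell in Eze against Th17, so the list has no settled direction there.

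Of 31 genes of the MAP kinase cascades that switch AP-1 on, 13 rose and 1 fell in Th17 against Th0 (median 0.21), against 15.8% of all genes in either direction. With the drugs the counts leaned the other way, with 3 up and 11 down in Eze against Th17 and 4 up and 13 down in Rsv against Th17. With each array centred, these were 4 higher and 8 lower in Eze and 0 higher and 15 lower in Rsv. The lower end was led by Map2k6, a kinase that activates p38, which averaged 5.29 in Eze, 3.68 in Rsv and 6.88 in Th17. Its differences from Th17 were -1.58 in Eze (SE 0.11, adjusted p = 8.12e-09) and -3.19 in Rsv (SE 0.11, adjusted p = 6.94e-13), the Rsv level lying below the median of the intron controls. Map2k3, another kinase upstream of p38, went the opposite way in Eze, at 0.48 (adjusted p = 0.000367). Mapk11, a p38 isoform, was at 0.42 (adjusted p = 0.00184). The ribosomal S6 kinase gene Rps6ka3 was lower with both drugs, at -1.04 in Eze and -1.20 in Rsv.

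Of 14 measured genes for turnover and co-regulators of Jun and Fos, 1 rose and 3 fell in Eze against Th17, and 1 rose and 4 fell in Rsv against Th17. With each array centred, 2 rose and 2 fell in Eze. Cops5, a subunit of the COP9 signalosome that binds Jun, was higher in Eze by 0.58 (SE 0.12, adjusted p = 0.00154). The acetyltransferase gene Ep300 was lower in Eze, at -0.62 (SE 0.08, adjusted p = 7.94e-06). Fbxw7, whose product marks Jun for degradation, was at -0.38 (SE 0.09, adjusted p = 0.00395). Of 11 factors that bind DNA together with AP-1 in T cells, 7 rose and 2 fell in Th17 against Th0, 1 rose and 6 fell in Eze against Th17, and 8 were lower in Rsv than in Th17 with none higher. Irf8, a partner of Batf, was the gene that was higher in Eze, at 0.55 (SE 0.09, adjusted p = 0.000139), while in Rsv it was at -0.45 (adjusted p = 0.000852). Satb1, an organizer of T cell chromatin, was at -0.73 in Eze and -0.22 in Rsv, and Runx3 was at -0.72 in Eze and -0.55 in Rsv.

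Of 21 T cell genes with known AP-1 sites, 4 rose and 15 fell in Th17 against Th0, 9 rose and 6 fell in Eze against Th17, and 14 rose and 4 fell in Rsv against Th17. Il2, the classic target of AP-1 with NFAT, averaged 6.39 in Eze, 8.64 in Rsv, 4.31 in Th17 and 4.88 in Th0. Its differences from Th17 were 2.08 in Eze (SE 0.12, adjusted p = 6.61e-10) and 4.33 in Rsv (SE 0.12, adjusted p = 3.08e-14), from a Th17 level within the range of the intron medians. Csf2, which encodes GM-CSF, was at 1.26 in Eze (adjusted p = 5.38e-06) and at 0.11 in Rsv, not past the threshold. Its means in all groups, 4.97 in Th17 and 6.23 in Eze among them, lay below the 95th percentile of the intron controls. Gzmb, which encodes granzyme B, went in opposite directions, at -1.31 in Eze (adjusted p = 9.37e-09) and 1.64 in Rsv (adjusted p = 3.7e-10) with -2.95 in Eze against Rsv. Some markers of cytotoxic cells differed in the same directions, with 3 of 6 lower in Eze than in Th17 and 4 of 6 higher in Rsv. Of all genes, 21.7% and 26.0% passed in these comparisons, in either direction. Of these 6, only Gzma and Prf1 passed the 95th percentile of the intron controls on any array. Gzma averaged 5.42 in Eze, 7.86 in Rsv and 8.08 in Th17, and so was not higher in Rsv. Prf1 averaged 5.55 in Eze, 7.12 in Rsv and 6.59 in Th17. Both CD8 markers were also higher in Rsv than in Th17 (median 0.98). The part of such cells in the values of Gzmb and of the other listed genes was not tested. The costimulatory receptor gene Tnfrsf9 was lower with both drugs, at -1.003 in Eze and -1.58 in Rsv.

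Of 8 Th17 genes known to be reduced in Batf-deficient mouse T cells, 7 rose and none fell in Th17 against Th0 (median 2.87), 2 rose and 5 fell in Eze against Th17 (median -0.88), and 6 were lower and none higher in Rsv than in Th17 (median -0.80). Il23r, the receptor that sustains Th17 cells, averaged 4.83 in Eze, 5.79 in Rsv, 7.76 in Th17 and 3.10 in Th0. Its differences from Th17 were -2.93 in Eze (SE 0.11, adjusted p = 3.7e-12) and -1.97 in Rsv (SE 0.11, adjusted p = 3.48e-10), and its levels outside Th17 lay within the range of the intron controls. Il21, the helper cytokine gene, was higher in Eze by 0.36 (SE 0.09, adjusted p = 0.00615) and lower in Rsv, at -0.93 (adjusted p = 3e-07). Il22 also passed the test in Eze, at means of 1.91 in Eze and 1.39 in Th17 (adjusted p = 0.0459), but both lie far below the median of the intron controls.

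**Figure D4:**
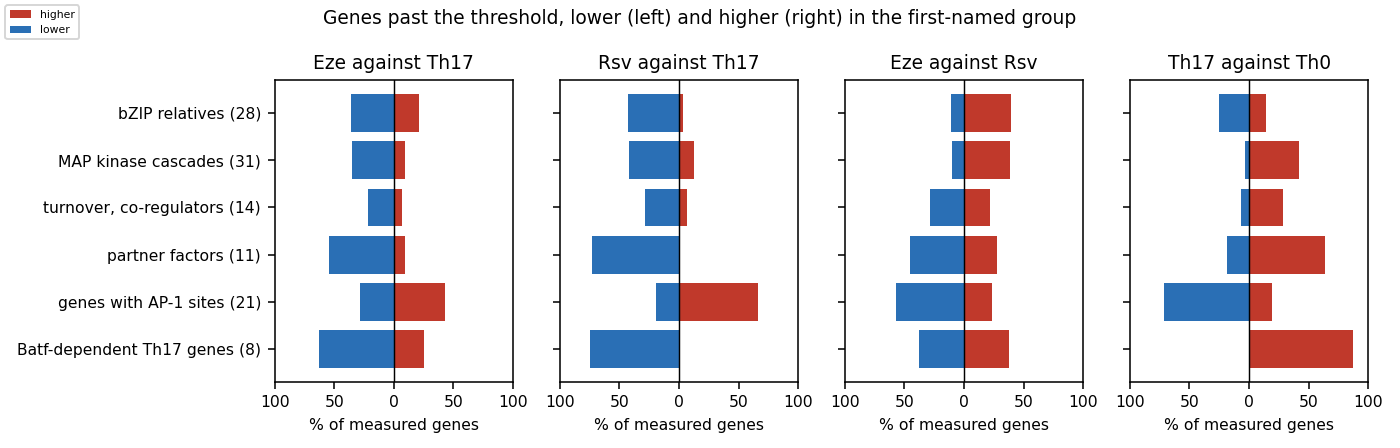
Share of the measured genes of each list, in percent, that passed an adjusted p of 0.05 as lower (left of 0) or higher (right of 0) in the first-named group, with the number of genes in parentheses. In Th17 against Th0, 13 of 31 MAP kinase genes were higher, while 8 of 11 partner factors were lower and 14 of 21 genes with AP-1 sites higher in Rsv than in Th17.

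For the 4 members that spanned more than 1 on the log2 scale, the genes with the most similar profile over the 16 arrays were found by the root mean square difference of centred log2 values. For Fosl2 these were Smox, which encodes spermine oxidase, at 0.10, Mctp2 at 0.15 and Gm20098 at 0.17, where the median over all genes was 0.89. For Jun the closest was Dpp4, which encodes the surface peptidase CD26, at 0.13, with Gm12840 at 0.15 and a median over all genes of 0.57. For Atf3 they were Ccr8, a chemokine receptor gene, at 0.11, and Cd83 and Ebi3, both at 0.16 (median 0.79). For Batf3 they were the ribosome assembly genes Nop2 and Wdr75, both at 0.17, and Mtrr, which encodes methionine synthase reductase, at 0.17 (median 0.55). These are descriptions over 16 arrays in 4 groups, where the arrays of a group share their condition.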

How the data were processed

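RNA of 16 samples was extracted with Trizol and hybridised to mouse gene arrays, named in the file headers as MoGene-2_0-st, although the study's methods speak of RNA sequencing. The authors deposited log2 signals that, by those methods, were preprocessed and quantile normalized; software and annotation version are not given in the sources used here. The values (0.82 to 13.0) were used as deposited. Of 41345 features, 33793 main features gave 30921 genes, each by its brightest feature, and 657 genes had several. The closest replicates differed by a root mean square of 0.22 over all genes, and no array was counted as a copy of another. Arrays have no read depth, so their number limits precision (the standard error of a difference had a median of 0.114). The labels name no separate cultures or mice behind the arrays of a group, and p-values therefore measure the spread between arrays alone, which may be technical.

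A mean for each group was fitted to all 16 arrays with lmFit and eBayes in limma 3.58.1 (R 4.3.3), after the script was tested on simulated data. Differences are on the log2 scale, two-sided, with Benjamini-Hochberg adjustment over all genes of a comparison. Overlap and exact Mann-Whitney tests used SciPy 1.17.1. Alternatives were the mean of all features, centring on the array median, the brighter part of the genes, a replicate block, a block for the unnumbered arrays, the numbered arrays alone, a fit on the 2 groups alone, array weights, an intensity trend and leaving out each array. The other deposited table held identical values and gave no alternative.

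Members, lists and motifs were chosen with earlier results of these data known. All 10 members are named; from each list, up to 2 genes with the largest positive and up to 2 with the largest negative difference among those past the threshold in Eze against Th17 are named; and for members spanning over 1 on the log2 scale, the 3 genes most alike in profile. Of the genes so chosen, 2 are not reported here. The gene lists and cell markers come from general knowledge.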

Additional observations from a re-analysis of the deposited data

Results flagged for a closer look

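Of 40 groups of 4 arrays (10 genes in 4 groups), 2 held an array whose gap to the nearest other was larger than Dixon's test allows at the 95% level, and chance flags about 1 in 20 groups. Fosl1 was at 5.58 on Th17 array 1, where the other Th17 arrays lay at 5.83 to 5.86. Without that array, Fosl1 was at 0.64 in Eze against Th17 (limma adjusted p = 0.00128), -0.28 in Rsv against Th17 (adjusted p = 0.142) and -0.60 in Th17 against Th0 (adjusted p = 0.00356). Batf3 was at 5.74 on Th17 array 2, where the others lay at 6.10 to 6.12. Without that array, Batf3 was at 1.21 in Eze against Th17 (adjusted p = 5.38e-06), 0.63 in Rsv against Th17 (adjusted p = 0.00269) and -0.75 in Th17 against Th0 (adjusted p = 0.00084). All 6 differences kept their direction and their side of the threshold.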

How the results depend on the processing

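Of 48 differences (8 genes in 6 comparisons), 32 passed the threshold, and 30 of these kept direction and call under all 25 alternatives. The others were Jund in Eze against Rsv and Batf3 in Eze against Th0. In what follows, 4 is a name given here to the unnumbered array of each group. Jund lost its call with arrays centred (-0.09, adjusted p = 0.464), with the numbered arrays alone (0.0676), with the 2 groups alone (0.0507) and without Eze 1, Eze 3, Rsv 2 or Rsv 4 (0.0558, 0.0757, 0.0509 and 0.0672), leaving out each array giving -0.28 to -0.22. Batf3 lost it with the numbered arrays alone (0.29, adjusted p = 0.148) and without Eze 4, Th0 2 or Th0 4 (0.0649, 0.0503 and 0.0794), leaving out each array giving 0.33 to 0.54. Among 16 differences not past the threshold, the sign turned with arrays centred for Junb (0.0095), Jund (0.0147) and Batf (0.0548) in Eze against Th17 and for Junb in Eze against Th0 (0.0556), and with the numbered arrays alone for Batf in Eze against Th17 (0.0187). Leaving out each array gave -0.0287 to 0.0612 for Junb in Th17 against Th0, -0.0555 to 0.0108 for Batf in Eze against Th17 and -0.0253 to 0.1148 for Fosl1 in Eze against Th0. Jund in Rsv against Th17 passed with the brighter genes (adjusted p = 0.0362), an intensity trend (0.0317) or without Th17 3 (0.0413). Jund in Eze against Th0 passed with the brighter genes (0.0388) or a trend (0.0361), and Batf in Eze against Rsv with arrays centred (0.29, adjusted p = 0.0229). The causes were not tested. Every count of members stayed within 1.5 times its value. Centring changed the share of higher calls over all genes from 51.7% to 64.1% in Eze against Th17, 52.2% to 35.8% in Rsv against Th17, 46.8% to 77.2% in Eze against Rsv and 51.7% to 72.2% in Eze against Th0, and the brighter genes gave 61.0% in Eze against Rsv. Same-numbered deviations correlated at -0.123 to 0.166 (-0.115 to 0.102 for the numbers 1 to 3), and differently numbered ones at -0.201 to 0.238. Of 16 arrays, 6 correlated best with their own number. These values gave no sign of pairing by number, but with so few arrays they cannot show that it is absent. The replicate block left the counts of members at 5 in Eze against Th17, 4 in Rsv against Th17, 7 in Eze against Rsv and 6 in Th17 against Th0, with 6654, 7995, 8655 and 4831 genes in all past the threshold in place of 6706, 8039, 8804 and 4883. Signals of Fos, Fosb and Fosl1 close to the intron controls limit what these arrays show of them.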

Other observations

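Junos, annotated on the plus strand of chromosome 4 from 95051534 to 95167318, overlaps Jun on the opposite strand. It averaged 3.91 in Eze, 4.03 in Rsv, 4.20 in Th17 and 4.18 in Th0, and its signal did not pass the percentile 52.2 of the intron controls on any array. The difference of -0.29 in Eze against Th17 (limma adjusted p = 0.0341) is therefore given as a value only.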
